A study of Mus musculus with 43 samples.

Results

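Iron and copper handling genes were examined in brain endothelial cells (EC), the cells that line brain vessels and form the blood-brain barrier. The 10 genes were the rows of the count table whose symbol was Tfrc, Steap3, Slc11a2, Slc39a14, Slc39a8, Fth1, Ftl1, Slc40a1, Cp or Heph, which is 10 of 54532 rows. The rule that picked them used gene symbols and no measured value, but the members were chosen with earlier results of these data known. RNA was sequenced from EC of mice aged 2 months in 43 libraries, 16 from female and 27 from male mice, 21 from cortex and 22 from hippocampus. The long-inbred strains were C57BL/6J (6 libraries), 129S1/SvImJ (9), A/J (5), DBA/2J (5) and NOD/ShiLtJ (6), and the recently wild-derived strains were WSB/EiJ (6) and CAST/EiJ (6). The labels name no engineered allele and no treatment in any group. The EC were live cells sorted as CD45-, CD11b- and CD31+ from dissociated tissue. A tag in each title, high or low, is defined neither by the labels nor by the methods. Because no label ties a library to its mouse, libraries were treated as independent samples, and the p-values measure the spread between libraries. Both regions were dissected from a brain, so libraries may share a mouse, and the p-values may then be too small.

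Iron reaches the brain across EC. Transferrin-bound iron is taken up at the transferrin receptor, reduced in endosomes by a ferrireductase such as Steap3 and moved into the cytosol by divalent metal transporters. Cytosolic iron is stored in ferritin, a shell built of heavy (Fth1) and light (Ftl1) chains, or leaves through ferroportin (Slc40a1), after which multicopper ferroxidases such as ceruloplasmin (Cp) and hephaestin (Heph) oxidise it for loading onto transferrin. Copper sits at the active site of these ferroxidases and is what ties the handling of the 2 metals together.

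Library totals on genes ran from 1626534 to 49372356 counts. A gene with 3 counts therefore stood at 0.0537 to 1.84 CPM (counts scaled to library size) depending on the library, and this floor covers counting error only. Reads on rRNA-like genes made up 1.59% to 12.1% of female and 12.97% to 29.3% of male libraries, without overlap between the sexes. The summed level of 10 endothelial markers (Cldn5, Pecam1, Cdh5 and others) ran from 9254 to 18505 CPM and no marker of this list was at 0 throughout a strain. RNA of other cells was present as well. The sum over 10 pericyte markers was 2161 to 9756 CPM, that over 10 astrocyte markers 1148 to 20780 CPM, and that over 7 microglial markers 0.555 to 147 CPM.

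Post-transcriptional control of iron genes runs through the iron-responsive element (IRE), a short RNA hairpin bound by iron regulatory proteins, which blocks translation from the 5′ UTR and stabilises mRNA from the 3′ UTR when iron is low. The transcripts of GENCODE release M21 were searched on the sense strand for a C, a stem of 5 bases, the loop CAGTGN and the other side of the stem, with the 5 bases before the loop paired to the 5 after it (G-T pairs allowed). The pattern lay in a UTR of 4 of the 10 genes, against 160 of 21901 genes with a protein-coding transcript (0.731%). The 10 genes were picked for metal handling, and control through this element is known for iron genes. Their share against all genes therefore cannot serve as a test. The 4 genes shown are all the members with the pattern in a UTR. Each is also among the 5 whose level varied among strains, and whether the pattern bears on that variation was not tested. Capitals mark the 6 bases of the loop, and each sequence is given 5′ to 3′ on the strand of its gene in mm10.
Fth1, 5′ UTR, chr19:9982738-9982754, plus strand: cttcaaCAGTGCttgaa
Ftl1, 5′ UTR, chr7:45459785-45459801, minus strand: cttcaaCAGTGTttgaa
Slc40a1, 5′ UTR, chr1:45925471-45925487, minus strand: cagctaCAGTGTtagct
Tfrc, 3′ UTR, chr16:32631225-32631241, plus strand: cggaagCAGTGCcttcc
Tfrc, 3′ UTR, chr16:32631604-32631620, plus strand: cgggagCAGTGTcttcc
Tfrc, 3′ UTR, chr16:32631669-32631685, plus strand: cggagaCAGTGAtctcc
Tfrc, 3′ UTR, chr16:32631716-32631732, plus strand: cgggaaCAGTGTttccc
The Fth1 and Ftl1 matches had the same stem and differed in the last base of the loop, and the 3′ UTR of Tfrc held 4 matches. Hairpins that depart from this pattern were not sought in any gene. A match of letters is a description and is not evidence that the element was in use in these cells, and for the other 6 genes the search says only that these letters were not found.

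All 10 genes passed the filter of at least 0.5 CPM in at least 1 library, and they differed widely in level. Per kilobase of exon, the ferritin heavy chain Fth1 was the highest with a median of 134 CPM per kb over 43 libraries (76.6 to 243). It was followed by Ftl1 with a median of 74.3, by Tfrc with 63.9 and by Slc40a1 with 25.2 CPM per kb. Storage, the transferrin receptor and the exporter were thus the genes with the most RNA for their length. Cp had a median of 13.2 and Slc39a8, a transporter of zinc, manganese and iron, of 10.9 CPM per kb. The remaining genes were lower, with medians of 3.54 for Steap3, 1.23 for Heph, 0.914 for Slc11a2 and 0.169 CPM per kb for Slc39a14. Fth1 exceeded Ftl1 in CPM in 43 of 43 libraries, Slc39a8 exceeded Slc39a14 in 43 of 43, and Slc40a1 exceeded Tfrc in 4 of 43.

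**Figure D1:**
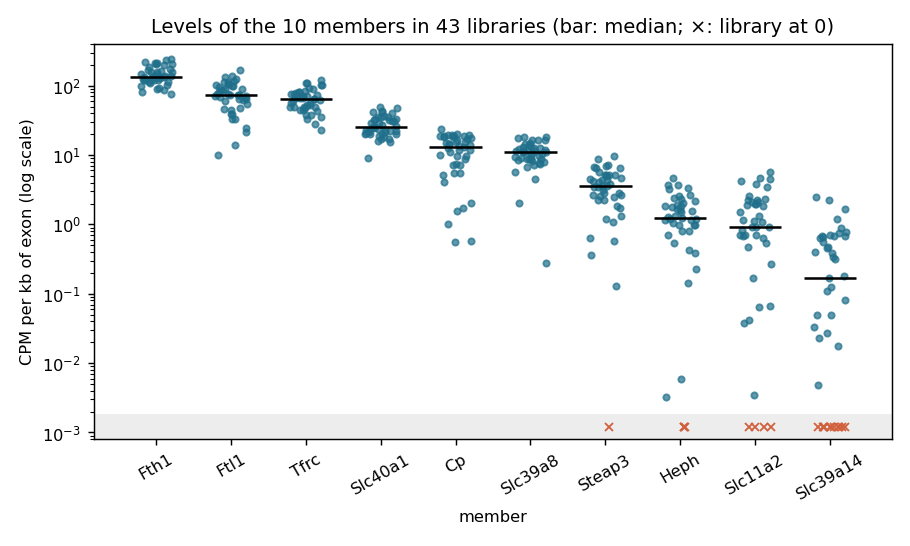
Levels of the 10 genes in CPM per kilobase of exon (log axis), 1 point for each of the 43 libraries, a bar at the median and a cross for a library at 0. Medians fall from 134 for Fth1 to 0.169 CPM per kb for Slc39a14.

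The first comparison asked which of the genes varied with genetic background. Among the 7 strains, 5 of the 10 genes differed in edgeR's quasi-likelihood test with Benjamini-Hochberg adjustment over all 29120 genes tested, of which 2.68% were called. These were Cp (adjusted p = 1.68e-10), Slc40a1 (0.00962), Fth1 (0.0152), Tfrc (0.0227) and Ftl1 (0.0278). DESeq2 called the same 5. The other 5, Slc39a8, Slc11a2, Steap3, Heph and Slc39a14, had adjusted p between 0.589 and 0.856. The calls depended on which strains were included. With CAST/EiJ left out edgeR called none of the 10, and 332 of 27936 genes in all. With WSB/EiJ left out it called Fth1 and Cp, and 668 of 28778 genes. With the long-inbred DBA/2J left out it called Ftl1, Slc40a1 and Cp, and 789 of 28571 genes.

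**Figure D2:**
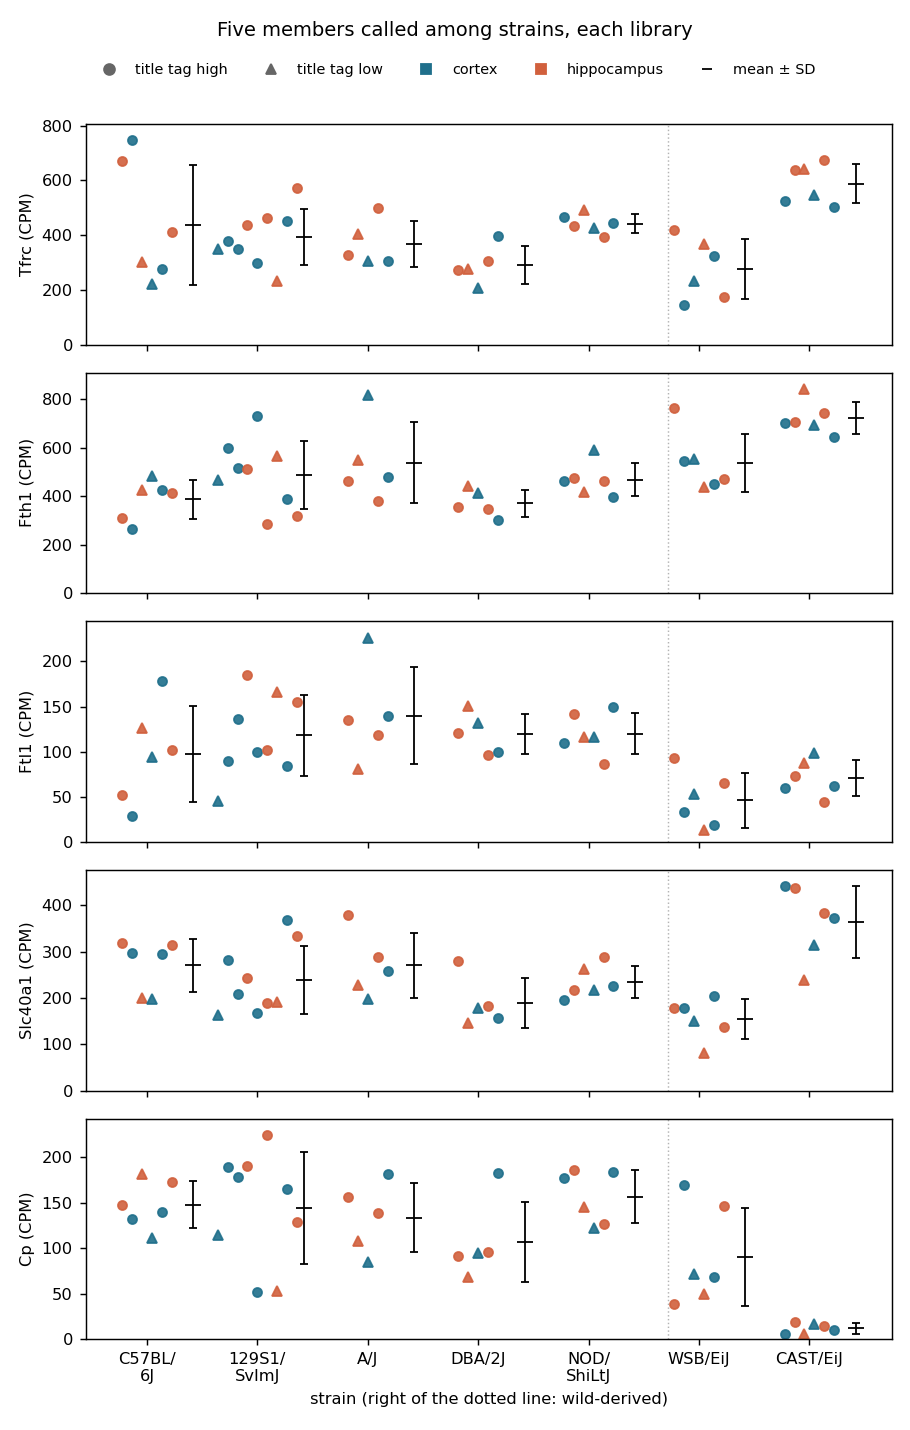
CPM of the 5 genes called among strains (linear axes from 0), 1 point for each of the 43 libraries, coloured by region and shaped by title tag, with the mean ± SD of each strain beside its points. CAST/EiJ lies below every other strain for Cp, with 5.32 to 19.2 CPM in its 6 libraries against 39.2 CPM in the lowest library of another strain.

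The 12 wild-derived libraries were then set against the 31 long-inbred ones, where 0.749% of 29120 genes were called. Cp and Ftl1 were lower in wild-derived strains and no member was higher past the test. In this fit the libraries of a strain count as separate samples of its origin. With counts summed per strain, so that each strain is 1 sample, 0 of the 10 and 7 of 22110 genes were called. Fth1 had a log2 fold change of 0.47 (SE 0.13) with an adjusted p of 0.0525, just above the threshold. The median log2 fold change was 0.08 over the 10 genes and -0.38 over all genes tested. As the wild-derived strains differed from each other, each was also fitted alone. CAST/EiJ against the long-inbred strains gave 2 called members, Cp lower and Fth1 higher, with 0.98% of 28779 genes called. WSB/EiJ against the same libraries gave 1, Ftl1 lower, with 0.895% of 27939 genes called. Both fits share the long-inbred libraries. CAST/EiJ against WSB/EiJ gave 3 called members, Tfrc and Slc40a1 higher and Cp lower in CAST/EiJ, where 1.22% of 29120 genes were called.

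**Figure D3:**
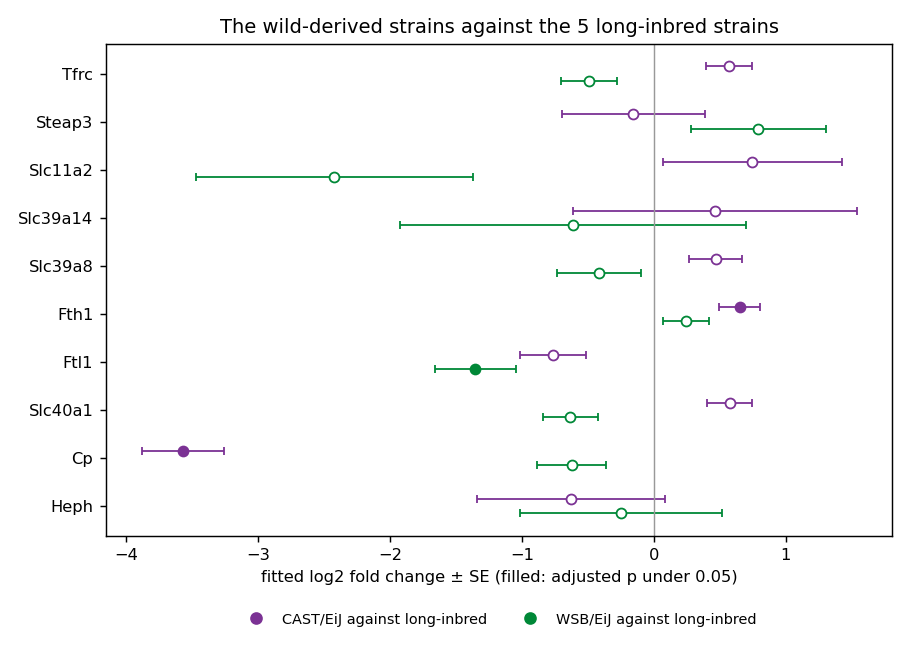
Fitted log2 fold changes with standard errors for the 10 genes, for CAST/EiJ and for WSB/EiJ against the long-inbred strains, with filled points for an adjusted p under 0.05. Cp in CAST/EiJ is farthest from 0, at -3.57, and Tfrc and Slc40a1 lie above 0 in CAST/EiJ and below 0 in WSB/EiJ.

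Ceruloplasmin carried the largest strain difference of the 10 genes. Cp (ENSMUSG00000003617) lies on chr3:19957054-20009145, plus strand, and encodes the copper-containing ferroxidase that oxidises iron on its way out of cells. In CAST/EiJ its 6 libraries stood at 5.32, 5.48, 9.85, 15.03, 16.7 and 19.2 CPM, from 22 to 404 reads each, so the level was low but well above the floor. In WSB/EiJ the 6 libraries ran from 39.2 through a median of 69.9 to 169 CPM. In the 31 long-inbred libraries Cp ran from 51.9 to 224 CPM with a median of 140.

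Every CAST/EiJ library lay below every one of the other 37 libraries, which held for no other of the 10 genes. Of all genes tested, 10 were lower and 63 higher in CAST/EiJ without overlap, 0.251% in total. Among the long-inbred strains the ranges of Cp overlapped. The lowest and highest values were 112 and 181 CPM in C57BL/6J with a median of 144, 51.9 and 224 in 129S1/SvImJ with a median of 165, and 122 and 186 in NOD/ShiLtJ with a median of 161. A/J gave 85.0, 108, 138, 156 and 181 CPM, and DBA/2J gave 68.8, 91.4, 94.3, 96.1 and 183 CPM. No neighbouring pair of strains in this order differed by more than the larger within-strain SD until the step from WSB/EiJ to CAST/EiJ, which was 2.77 on the log2 scale against an SD of 0.83.

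Cp was 11.9-fold lower in CAST/EiJ than in the long-inbred strains (log2 -3.57, SE 0.31, adjusted p = 2.77e-13) and 7.58-fold lower than in WSB/EiJ (log2 -2.92, SE 0.36, adjusted p = 1.26e-08). WSB/EiJ against the long-inbred strains gave -0.62 (SE 0.26, adjusted p = 0.377) and was not called. The 2.75-fold lower level in wild-derived strains as a group (log2 -1.46, SE 0.29, adjusted p = 0.00198) therefore rested on CAST/EiJ, and without that strain the adjusted p was 0.377. In these bulk samples, fewer cells of a type and less RNA per cell cannot be told apart. Hps3 overlaps Cp on the opposite strand and ran at 14.2 to 28.7 CPM in CAST/EiJ and 0.131 to 58.8 CPM in long-inbred strains. In WSB/EiJ it ran from 0.731 to 365 CPM, and the library at 365 CPM, replicate 2, was also the one with the highest Cp of that strain. Its share in the reads assigned to Cp was not tested. The low Cp of CAST/EiJ was present in both regions and both sexes, with 5.32, 9.85 and 16.7 CPM in cortex and 5.48, 15.03 and 19.2 CPM in hippocampus.

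Of the ferritin genes, the light chain was lower in the wild-derived strains and the heavy chain was higher in CAST/EiJ. Ftl1 (ENSMUSG00000050708, chr7:45457944-45459884, minus strand), the light chain that supports mineralisation of the iron core, ran at 13.6, 18.5, 32.9, 53.1, 65.0 and 93.3 CPM in the 6 WSB/EiJ libraries. CAST/EiJ ran from 43.8 through a median of 67.8 to 98.4 CPM. Long-inbred libraries ran from 29.0 through a median of 117 to 226 CPM. All 12 wild-derived libraries lay below the long-inbred median, and 22 of 31 long-inbred libraries lay above the highest wild-derived one, while the ranges still overlapped. A/J gave the highest mean, with 80.4, 118, 135, 140 and 226 CPM, and DBA/2J gave 95.9, 99.6, 120, 131 and 150 CPM. C57BL/6J ran from 29.0 to 178 CPM with a median of 97.9, 129S1/SvImJ from 45.1 to 185 with a median of 102, and NOD/ShiLtJ from 86.3 to 150 with a median of 116. In the order of strain means from A/J down to WSB/EiJ every neighbouring pair overlapped and none differed by more than the larger within-strain SD.

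Ftl1 was 2.02-fold lower in wild-derived strains (log2 -1.01, SE 0.22, adjusted p = 0.00558). It was 2.56-fold lower in WSB/EiJ alone (log2 -1.35, SE 0.31, adjusted p = 0.0125), close to that fit's median of -1.31 over all genes tested. The value for CAST/EiJ alone was -0.76 (SE 0.25, adjusted p = 0.221), with an all-gene median of -0.50. The call among 7 strains was lost without A/J replicate 3 (adjusted p = 0.0544) or without WSB/EiJ replicate 4 (0.0867). That WSB/EiJ library had the lowest Ftl1 (13.6 CPM) and the highest rRNA-like share (29.3%) of the 43, and a TMM scaling factor of 0.704. WSB/EiJ also had the lowest median total of the strains, 2721155 counts. The part of depth and rRNA-like share in its Ftl1 level was not tested. Ftl1 has near-identical copies in the genome, and reads from them are uncertain in their assignment. The 19 entries with at least 90% identity, many of them short miRNA entries, held 210 reads against 62708 on Ftl1, or 0.335%. Of these, Gm22133 lies within Ftl1 on the same strand and held 0 reads. Their highest share in a single library was 5.09% of the reads on Ftl1 and these entries, in CAST/EiJ.

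Fth1 (ENSMUSG00000024661, chr19:9980598-9985098, plus strand), the heavy chain with ferroxidase activity, was highest in CAST/EiJ. Its 6 CAST/EiJ libraries ran from 644 through a median of 706 to 844 CPM (mean 724 ± 67.3, SD, n = 6). WSB/EiJ ran from 438 through 510 to 763 CPM, and the long-inbred strains from 266 through 441 to 817 CPM. The CAST/EiJ libraries all exceeded 29 of the 31 long-inbred ones, with overlap from 129S1/SvImJ (up to 730 CPM) and A/J (up to 817). A/J gave 382, 462, 480, 551 and 817 CPM, and DBA/2J, the lowest strain by mean, gave 301, 347, 356, 413 and 441 CPM. The A/J library at 817 CPM, replicate 3, also had the highest Ftl1 (226 CPM) and the highest astrocyte marker sum (20780 CPM) of the 43 libraries, and the part of astrocyte RNA in these values was not tested. In the other strains Fth1 ran from 266 to 483 CPM in C57BL/6J with a median of 420, from 285 to 730 in 129S1/SvImJ with a median of 513, and from 398 to 592 in NOD/ShiLtJ with a median of 464.

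Fth1 was 1.57-fold higher in CAST/EiJ than in the long-inbred strains (log2 0.65, SE 0.15, adjusted p = 0.0131). The value for WSB/EiJ was 0.24 (SE 0.17, adjusted p = 0.797). For the wild-derived strains together, 11 of 12 libraries lay above the long-inbred median, and the adjusted p of 0.0525 did not pass. It fell under the threshold in 9 of 22 alternatives, including the fit with sex, region and tag as covariates (0.0160). Among these 9 were edgeR's default deviances, which called 6712 of 29120 genes, and the fit without WSB/EiJ. Unplanned fits, without WSB/EiJ replicate 4 or 6 or with marker sums as covariates, were among them too. The 12 other entries counted, which are the sequence match Gm6977 and rows with symbols starting with Fth, held 339 reads in all, against 293318 on Fth1.

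The ratio of the chains was therefore highest in wild-derived libraries. Fth1 over Ftl1 in CPM ran from 7.07 through a median of 10.4 to 32.2 in the 12 wild-derived libraries, and from 2.06 through 3.61 to 10.3 in the 31 long-inbred ones. It ran from 7.27 to 32.2 in WSB/EiJ with a median of 13.5 and from 7.07 to 17.0 in CAST/EiJ with a median of 10.01. DBA/2J had the lowest median, 3.02, and its 5 libraries lay between 2.94 and 3.61. This ratio is a comparison of read counts within a library and does not depend on library size or on the scaling. No test was made of it, as it combines 2 genes already tested.

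**Figure D4:**
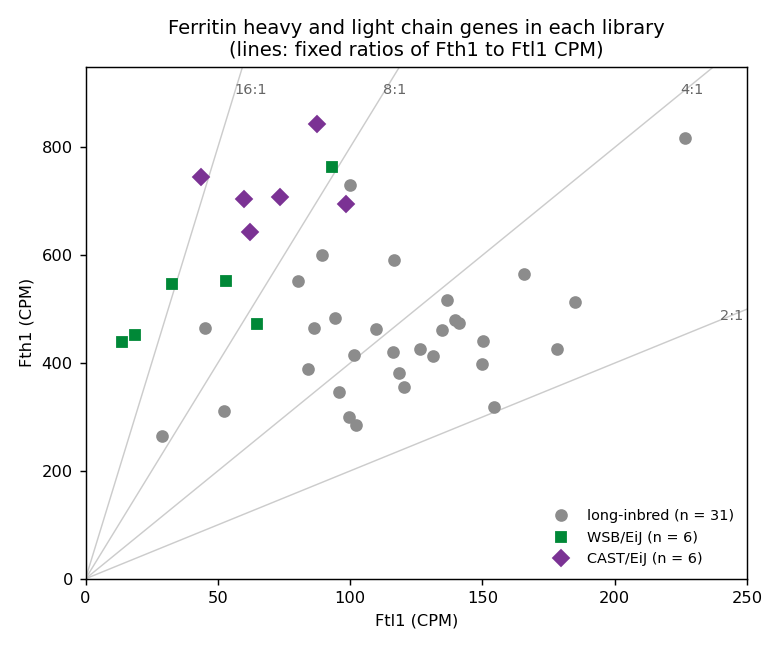
Fth1 against Ftl1 in CPM (linear axes from 0), 1 point for each of the 43 libraries, with CAST/EiJ, WSB/EiJ and long-inbred strains in different colours and thin lines at fixed ratios. All 12 wild-derived libraries lie below the long-inbred median of Ftl1 (117 CPM), and 11 of 12 lie above the long-inbred median of Fth1 (441 CPM).

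The receptor for iron entry and the iron exporter differed between the wild-derived strains themselves. Tfrc (ENSMUSG00000022797, chr16:32608920-32632794, plus strand) encodes the transferrin receptor, a receptor that is abundant at the blood-brain barrier. It ran from 504 through a median of 593 to 674 CPM in CAST/EiJ and from 143 through 279 to 418 CPM in WSB/EiJ, with no overlap. The long-inbred strains lay between, from 208 through 392 to 747 CPM. C57BL/6J spread most, from 221 to 747 CPM with a median of 356, and NOD/ShiLtJ least, from 392 to 491 with a median of 439. 129S1/SvImJ ran from 231 through 379 to 574 CPM. A/J gave 305, 307, 327, 405 and 500 CPM, and DBA/2J gave 208, 272, 276, 305 and 395 CPM. In the order of strain means, CAST/EiJ did not overlap with NOD/ShiLtJ, the next strain, and every later neighbouring pair overlapped.

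Tfrc was 2.12-fold higher in CAST/EiJ than in WSB/EiJ (log2 1.09, SE 0.24, adjusted p = 0.00538). Against the long-inbred strains the values were 0.57 (SE 0.17, adjusted p = 0.127) for CAST/EiJ and -0.50 (SE 0.21, adjusted p = 0.390) for WSB/EiJ. With one value above 0 and the other below, the wild-derived strains as a group gave 0.15 (SE 0.16, adjusted p = 0.754).

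Slc40a1 (ENSMUSG00000025993, chr1:45908068-45926523, minus strand), ferroportin, is the known cellular iron exporter of mammals. It ran from 238 through a median of 379 to 441 CPM in CAST/EiJ and from 81.3 through 165 to 204 CPM in WSB/EiJ, again with no overlap. The long-inbred strains ran from 146 through 227 to 380 CPM. A/J gave 198, 228, 259, 289 and 380 CPM, and DBA/2J, the lowest long-inbred strain by mean, gave 146, 156, 179, 183 and 281 CPM. The other strains had medians of 296 CPM in C57BL/6J (197 to 320), 208 in 129S1/SvImJ (164 to 369) and 222 in NOD/ShiLtJ (196 to 289). All neighbouring strains overlapped.

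Slc40a1 was 2.35-fold higher in CAST/EiJ than in WSB/EiJ (log2 1.23, SE 0.24, adjusted p = 0.000857). Each strain alone against the long-inbred ones was not called, at 0.57 (SE 0.17, adjusted p = 0.100) for CAST/EiJ and -0.64 (SE 0.21, adjusted p = 0.146) for WSB/EiJ. Of the 10 genes, 3 did not overlap between CAST/EiJ and WSB/EiJ (Tfrc, Slc40a1 and Cp), and 2.31% of all genes did not. The ratio of Slc40a1 to Tfrc differed little, with medians of 0.629 in CAST/EiJ and 0.640 in WSB/EiJ.

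Pericyte markers also differed between CAST/EiJ and WSB/EiJ. Their sum was 2161 to 3108 CPM in CAST/EiJ and 5242 to 9756 CPM in WSB/EiJ, without overlap, and 2533 to 8751 CPM in long-inbred strains. Of the 10 pericyte markers, 5 were lower in CAST/EiJ than in WSB/EiJ (Pdgfrb, Abcc9, Vtn, Rgs5 and Notch3). Of the 10 endothelial markers, Cldn5, Tek and Ly6c1 were higher. The smooth muscle marker sum had the higher median in CAST/EiJ, with overlap, at 311 CPM (200 to 427) against 182 CPM (141 to 501) in WSB/EiJ. The endothelial sum itself overlapped, at 11317 to 16215 CPM in CAST/EiJ and 11821 to 15374.5 in WSB/EiJ. With pericyte and astrocyte marker sums as covariates, a fit added after seeing the data, the call among strains was lost for Slc40a1 (adjusted p = 0.399) and Tfrc (0.114) and was kept for Cp, Fth1 and Ftl1. As the pericyte sum did not overlap between CAST/EiJ and WSB/EiJ, this fit cannot tell cell content from strain. The red blood cell marker sum also varied among strains, with medians of 543 CPM in CAST/EiJ, 110 in WSB/EiJ and 64.8 in DBA/2J. The part of pericytes, smooth muscle cells, astrocytes and red blood cells in the levels of Tfrc and Slc40a1 was not tested.

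The other transporters of the uptake group were not called in any comparison. Slc39a8 (ENSMUSG00000053897, chr3:135825279-135888572, plus strand), a plasma membrane carrier of divalent metals, ran from 2.16 through a median of 83.7 to 141 CPM. The 2 WSB/EiJ libraries from female mice had 2.16 CPM (5 reads, cortex) and 15.6 CPM (64 reads, hippocampus). The 4 from male mice had 56.4, 66.6, 88.3 and 135 CPM, and the lowest library of any other strain had 35.1 CPM. The low values were thus limited to these female WSB/EiJ libraries among the 43. The origin effect on Slc39a8 differed between sexes by -0.81 (female minus male, log2, SE 0.48), which was not called (adjusted p = 0.9999). Medians in the other strains were 121 CPM in CAST/EiJ (85.9 to 141), 108 in A/J, 89.9 in C57BL/6J, 72.3 in 129S1/SvImJ, 68.9 in NOD/ShiLtJ and 63.5 in DBA/2J.

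Steap3 (ENSMUSG00000026389, chr1:120190757-120272705, minus strand), the endosomal ferrireductase that serves the transferrin cycle, ran from 0 to 55.8 CPM with a median of 20.2. Its means ran from 33.9 ± 14.2 CPM in WSB/EiJ (SD, n = 6) to 13.2 ± 12.8 in 129S1/SvImJ (SD, n = 9), and all neighbouring strains overlapped. Slc11a2 (ENSMUSG00000023030, chr15:100387898-100425072, minus strand) encodes DMT1, which carries ferrous iron out of the endosome. It ran from 0 to 35.9 CPM, was at or under 3 reads in 9 of 43 libraries, and was near the limit of detection in WSB/EiJ, where 4 of 6 libraries had at most 3 reads and the highest 5.24 CPM. CAST/EiJ ran from 1.71 through 13.5 to 35.9 CPM. The fitted difference between these strains was 3.19 (log2, SE 1.16, adjusted p = 0.226) and was not called.

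Slc39a14 (ENSMUSG00000022094, chr14:70303469-70351425, minus strand), a related carrier of iron not bound to transferrin, was at 0 in 11 libraries and at most 26.3 CPM, with 18 libraries at or under 3 reads. Its strain medians lay between 0 and 6.56 CPM. Heph (ENSMUSG00000031209, chrX:96455359-96574485, plus strand), the membrane-bound ferroxidase related to Cp, ran from 0 to 35.5 CPM with a median of 9.39. It was highest by mean in NOD/ShiLtJ (20.9 ± 10.5 CPM, SD, n = 6) and lowest in 129S1/SvImJ (7.004 ± 5.79, SD, n = 9). In CAST/EiJ, where Cp was low, Heph had a median of 8.64 CPM and a log2 value of -0.63 (SE 0.72, adjusted p = 0.875) against the long-inbred strains.

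The study also compared regions and sexes, and none of the 10 genes was called in either. Between hippocampus and cortex, edgeR called 0.0755% of 29120 genes and 0 of the 10, with 0 of the 10 at an unadjusted p under 0.05 and 0 called by DESeq2. The largest values were -0.44 for Slc39a14 (SE 0.77) and 0.37 for Slc11a2 (SE 0.56), both rarely read. For the abundant genes the log2 differences were 0.18 for Tfrc (SE 0.15), -0.10 for Fth1 (SE 0.13), 0.10 for Ftl1 (SE 0.21), 0.05 for Slc40a1 (SE 0.15) and -0.04 for Cp (SE 0.28). Each of them was smaller than the spread within either region. Medians of Tfrc, for example, were 414 CPM in hippocampus (175 to 674) and 351 CPM in cortex (143 to 747).

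Between female and male mice 2.85% of 29120 genes were called by edgeR and again 0 of the 10, with 0 at an unadjusted p under 0.05 and 0 called by DESeq2. Of the genes called, 745 were higher and 85 lower in female mice, and with DESeq2's size factors 430 were higher and 155 lower. That scaling moved the median log2 fold change of all genes from -0.12 to -0.24. The 10 genes had a median of -0.07. The lowest value was that of Steap3 (-0.60, SE 0.38) and the highest that of Slc39a14 (0.49, SE 0.79). Cp had medians of 152 CPM in female (5.32 to 224) and 111 CPM in male mice (5.48 to 184), with a log2 difference of 0.28 (SE 0.28). The sexes also differed in rRNA-like share. With that share as a covariate edgeR called 65 genes and 0 of the 10, whose median was then 0.37, and the log2 difference of Cp was -0.39 (adjusted p = 0.900).

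The difference between origins did not change detectably with region or sex. For region, edgeR called 0% of 29120 genes, and DESeq2 called 23, none of them among the 10. For sex, 0.0206% were called by edgeR and 21 genes by DESeq2, none of them among the 10. No member had an unadjusted p under 0.05 in either test. Cp gave -0.29 (SE 0.55) between regions and 0.05 (SE 0.56) between sexes on the log2 scale, and Ftl1 gave 0.15 (SE 0.42) and 0.52 (SE 0.42).

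The title tag could be compared only within male mice, with 14 libraries titled high and 13 titled low. There 1.06% of 27529 genes were called and 0 of the 10 by edgeR, with 2 at an unadjusted p under 0.05. DESeq2 gave 7 of the 10 an adjusted p and called 0 of them. Slc40a1 had a median of 289 CPM in high (137 to 385) and 198 CPM in low libraries (81.3 to 315), a log2 difference of 0.45 (SE 0.16, adjusted p = 0.251). Fth1 had a median of 420 CPM in high (301 to 745) and 551 CPM in low libraries (413 to 844), a log2 difference of -0.31 (SE 0.13, adjusted p = 0.451). Under edgeR's default deviances, which called 8327 genes, both passed. Markers of other cells moved with the tag. The astrocyte sum was 1554 to 7597 CPM in high and 3432 to 20780 CPM in low libraries, and 5 of 10 astrocyte markers were lower and 4 of 10 endothelial markers higher in high libraries. Their part in the values of Slc40a1 and Fth1 was not tested.

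**Figure D5:**
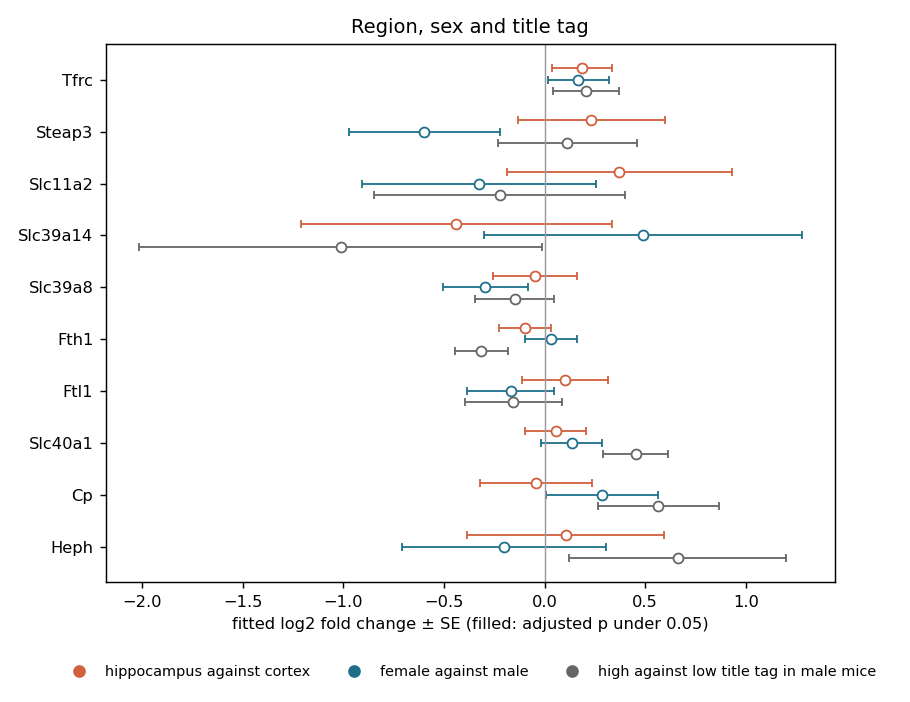
Fitted log2 fold changes with standard errors for the 10 genes between regions, sexes and title tags (tags in male mice only). No point is filled, as none of the 10 genes had an adjusted p under 0.05, and the widest error bars belong to Slc39a14, Slc11a2 and Heph, the genes with the fewest reads.

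A wider list of 61 genes of iron, copper, zinc and manganese handling was set beside these 10, and 55 of them passed the filter. Among strains edgeR called 3 of 55, against 2.68% of all genes. Atox1, the chaperone that hands copper to the secretory pathway, ran from 0 to 16.4 CPM in WSB/EiJ and from 45.6 to 70.6 CPM in CAST/EiJ, without overlap. It was 8.58-fold higher in CAST/EiJ than in WSB/EiJ (log2 3.10, SE 0.59, adjusted p = 0.000459) and 5.96-fold lower in WSB/EiJ than in the long-inbred strains (log2 -2.58, SE 0.56, adjusted p = 0.00748). Sod3, the extracellular superoxide dismutase that needs copper, was lowest in 129S1/SvImJ at 17.3 to 59.5 CPM, while the median of every other strain lay between 72.1 and 92.2 CPM (adjusted p = 0.000983 among strains). Atox1 was not called without CAST/EiJ, without WSB/EiJ or with pericyte and astrocyte marker sums as covariates, and Sod3 was not called without 129S1/SvImJ or in male libraries only.

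Slc39a10, a zinc importer, was the third gene called among strains (adjusted p = 6.98e-06) and the one gene of the list that edgeR called between origins. Of all genes, edgeR called 0.749% between origins. DESeq2 called 3 of the list there, Atp7a, Slc30a1 and Slc39a10, and 395 of 16277 genes in all. Slc39a10 ran from 787 through a median of 1162 to 1645 CPM in wild-derived and from 399 through 766 to 1207 CPM in long-inbred strains, 1.48-fold higher (log2 0.56, SE 0.12, adjusted p = 0.00558), and was not called without CAST/EiJ. By edgeR, 0 of the genes tested in the other groups were called among strains. These were 13 genes of uptake and reduction, 6 of sensing and storage, among them the iron regulatory proteins Ireb2 and Aco1, 3 of export and its control, 7 of haem and 7 of mitochondrial iron. At an unadjusted p under 0.05 stood 1 gene of uptake, 1 of sensing, 2 of export and 0 of the last 2 groups. Of all genes tested, 10.7% did. DESeq2 called 1 of them among strains, Pcbp2, an iron chaperone of the cytosol, along with Atox1, Sod3 and Slc39a10. It called 1315 of 16804 genes in all.

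Between regions edgeR called 0 of 55, against 0.0755% of all genes, and DESeq2 called 0. In edgeR 3 stood at an unadjusted p under 0.05, against 5.6% of all genes. Between sexes edgeR called 2 of 55, against 2.85% of all genes. DESeq2 called 4 (Cox17, Mt3, Pcbp2 and Slc46a1), and 1000 of 17932 genes in all. Cox17, which delivers copper to cytochrome c oxidase, was higher in female mice (log2 2.87, SE 0.49, adjusted p = 2.31e-05), from 3.99 to 78.2 CPM against 0 to 15.9 CPM in male mice. The metallothionein Mt3, which binds zinc and copper, was lower in female mice (log2 -1.37, SE 0.38, adjusted p = 0.0226). With rRNA-like share as a covariate neither was called, at 1.61 (SE 1.13, adjusted p = 0.627) for Cox17 and -1.87 (SE 0.71, adjusted p = 0.246) for Mt3, and Mt3 was called in 8 of 17 alternatives. In male mice Mt3 was also lower in libraries titled high (log2 -1.20, SE 0.28, adjusted p = 0.0143), with a median of 23.4 against 55.4 CPM. Beside it, 3 of 10 astrocyte markers were lower in female mice and 5 of 10 in libraries titled high, and their part in the level of Mt3 was not tested. Mcoln1, a lysosomal cation channel that passes iron, was higher in libraries titled high (log2 1.06, SE 0.28, adjusted p = 0.0412) and was called in 7 of 14 alternatives. For the tag edgeR called these 2, against 1.06% of all genes. DESeq2 called 4 (Mcoln1, Mt3, Pcbp1 and Slc30a1), and 640 of 6972 genes in all.

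For the 5 genes called among strains, the genes whose log2(CPM + 1) followed theirs most closely over the 43 libraries were sought among 14614 genes, as a description with no test. The libraries of a strain share their background, which such a correlation includes. Cp was followed by Itih5 (Pearson's r = 0.89), Colgalt2 (0.89) and St8sia6 (0.87). The other 4 had looser companions. Slc40a1 was followed by Acta2 (0.72), Ctsa (0.70) and Tek (0.70), Tfrc by Thsd1 (0.70), Cd34 (0.66) and Jpt2 (0.63). Fth1 was followed by Rassf3 (0.71), Adgra1 (0.69) and Jcad (0.68), and Ftl1 by Prrt4 (0.68), Mgll (0.66) and Unc45b (0.66).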

How the data were processed

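The authors sorted EC, removed rRNA from total RNA, made stranded low-input libraries, read them from a single end, aligned the reads to mm10 with HISAT2 2.1.0 and counted them per gene with featureCounts (Subread 1.4.4), handling alignments with SAMtools 1.9. They deposited raw counts without normalization for 54532 genes in 43 libraries, from which everything here was computed. The strand and multiple-mapping settings of the counting are not given in the sources used here. Reads of all strains were aligned to a C57BL/6J-based genome, and the effect of this on counts in the other strains was not tested. Reads were not analysed here.

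The scaling was TMM, by edgeR 4.0.16 under R 4.3.3. A gene was tested if 1 library or more held it at 0.5 CPM or more, the filter that the methods of the study give. Strain, origin, region, sex and, in male mice, title tag were compared over the whole table with the quasi-likelihood test, two-sided, without covariates, with Benjamini-Hochberg adjustment at 0.05. Standard errors are the size of the log2 fold change divided by the square root of F. Bias-adjusted deviances were used. This choice was made after gene counts under edgeR's defaults were known, and the simulated data were fitted with bias-adjusted deviances only. Where a fit had covariates, a gene was dropped if its fitted counts reached over 5 times its highest observed count. Scripts were tested on simulated data.

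Alternatives were DESeq2 1.42.0, other scaling and filters, covariates, subsets of libraries, strains or single libraries left out, and counts summed per strain. Totals per library ran from 1626534 to 49372356 counts. Positions and exon lengths come from GENCODE release M21, which held 54495 of the genes. Copies were found with BLAST 2.17.0 (at least 90% identity over at least 100 bases).

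All 10 members were described in every comparison. From the wider list, genes that passed a test were named. For members called among strains, the 3 genes with the highest correlation among those averaging at least 1 CPM were named. Members, lists and tests were chosen with earlier results of these data known.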

Additional observations from a re-analysis of the deposited data

Results flagged for a closer look

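Dixon's criterion was applied to each of the 10 genes in each of the 7 strains, and chance meets it in about 1 in 20 such groups. In 4 cases a single library stood apart from the others of its strain, a number that chance alone can give. All 4 concern genes with few reads. Slc11a2 was 0.0217 CPM in 129S1/SvImJ replicate 5 (female, cortex), against 4.45 to 29.4 CPM in the other 8 libraries. It was 0 in A/J replicate 2 (male, hippocampus), against 7.20 to 16.5 CPM. Slc39a14 was 4.92 CPM in A/J replicate 5 (male, cortex), against 0 to 0.528 CPM. Heph was 1.11 CPM in CAST/EiJ replicate 4 (male, cortex), against 7.48 to 12.3 CPM. None of these genes was called in any comparison.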

How the results depend on the processing

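Between wild-derived and long-inbred strains the number of members called was 2, and 0 with cortex only, hippocampus only or counts summed per strain, and 1 (Ftl1) without CAST/EiJ. With fewer libraries or sums, fewer genes were called in all (40 in cortex, 68 in hippocampus, 7 with sums). WSB/EiJ replicates 4 and 6, left out singly, each gave 3. The other alternatives gave 2 or 3, the third being Fth1, except that without WSB/EiJ the 2 were Fth1 and Cp. In cortex the log2 fold changes were -1.34 for Cp and -1.10 for Ftl1, and in hippocampus -1.61 and -0.95, so their direction and size held. Among 7 strains, 5 were called, with 781 of 29120 genes in all. In libraries titled high 2 were called (624 of 25848 genes), and in male libraries 4, with Fth1 lost (474 of 27529). Without CAST/EiJ 0 were called (332 of 27936), without DBA/2J 3 (789 of 28571) and without WSB/EiJ 2 (668 of 28778). With marker sums as covariates 3 were called (751 of 22884). The cause was not tested. Single libraries left out gave 4 to 5. For the title tag in male mice edgeR's default deviances gave 2 in place of 0. Those deviances called 6712 genes between origins and 13525 among strains. For region and sex no member was called under any alternative. Signs were followed for all members between origins, for Fth1 and Slc40a1 between tags, and for Cp between regions and sexes. Among these no called value changed sign, while 29 values that were not called did. DESeq2 called 395 genes between origins and 1315 among strains, against 218 and 781 by edgeR. Genes at or near 3 counts (Slc11a2, Slc39a14, Heph) are limited by depth. No paired analysis was possible because no label ties a library to its mouse, and numbers stand only in titles of female 129S1/SvImJ libraries, where cortex and hippocampus have a single number in common.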
